A study of Arabidopsis thaliana with 6 samples.

Results

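The WRKY proteins are a family of plant transcription factors, and 39 genes of the family (WRKY1 to 4, 6 to 8, 11, 15, 17, 18, 20 to 22, 25, 26, 28 to 30, 32, 33, 38 to 40, 44 to 46, 48, 50, 51, 53, 54, 57, 60, 65, 69, 70, 74 and 75) were followed by gene identifier in rosette leaves of Arabidopsis with and without the receptor kinase FERONIA (FER). All 39 were found among the 20754 genes of the deposited table, and none was absent. Libraries came from the wild-type (WT) accession Columbia-0 and from *fer*, which here means *fer-4*, a T-DNA insertion allele of FER in that accession that affects every cell of the plant. Each genotype had 3 untreated libraries, described as biological replicates, of rosette leaf RNA collected at 4 weeks. Whether an RNA replicate was 1 plant or a pool was not stated, although the study describes pools of several rosettes, more of them for *fer*, for its protein samples. In addition, the labels give short days where the study's text gives long days, and the study's text gives a slightly higher age. The mutant rosettes were smaller than those of WT. Leaves are a mixture of cells, so fewer cells of a type and less RNA per cell cannot be told apart. The comparison asks which WRKY transcripts differ in level when FER is missing.

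WRKY proteins carry a DNA-binding domain made of a conserved heptapeptide followed by a zinc finger, and most of them bind the W box, a short element with the core TTGAC found in the promoters of many defence genes and of WRKY genes themselves. The family is divided by structure: group I has a pair of WRKY domains, groups IIa to IIe have a single domain with the same type of zinc finger, and group III has a single domain with another type. In leaves many members act downstream of immune receptors and mitogen-activated protein (MAP) kinases, in signalling by salicylic acid and jasmonic acid, and in senescence. FER is a plasma membrane receptor kinase that binds RALF peptides and takes part in growth, reproduction and immune signalling.

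The coding bases of the heptapeptide are shown for members on which the results turn, from the TAIR10.1 genome and its RefSeq annotation, as the feature that places a gene in the family and separates a pair of group IIc members from the rest. The codon of the sixth residue is in capitals, and each sequence is read 5′ to 3′ on the strand of its gene.
WRKY45, chr3:326932-326952, minus strand: tggaggaagtacggcCAAaaa
WRKY60, chr2:10630643-10630663, plus strand: tggaggaaatacgggCAAaag
WRKY8, chr5:18802528-18802548, minus strand: tggagaaagtatggcCAAaaa
WRKY33, first domain, chr2:16109358-16109378, plus strand: tggagaaagtacggaCAAaaa
WRKY33, second domain, chr2:16109982-16110002, plus strand: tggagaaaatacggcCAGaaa
WRKY70, chr3:20909760-20909780, minus strand: tggaggaaatatggaCAAaag
WRKY50, chr5:9147579-9147599, minus strand: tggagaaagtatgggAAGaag
WRKY51, chr5:25908864-25908884, plus strand: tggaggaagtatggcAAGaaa
In all, 49 copies were found in the 39 proteins. The 10 members of group I held 2 copies each, and the other 29 members held 1. The sixth residue was glutamine in every member except 2, WRKY50 and WRKY51, where it was lysine.

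Levels are given as normalized reads: QuantSeq, the method used, reads polyadenylated transcripts from a site by their 3′ end, so the value of a gene does not grow with its length. The authors brought every library to a common total. The study's text states depth only as an average over samples, and the values do not yield a depth per library. In low genes the step that fitted best as the worth of 1 read was between 0.755 and 1.185 normalized reads, but only 27.5 to 100% of low values per library lay within 0.1 of a step from a whole number of such steps. The step of 0.755, from WT column 3, had the share of 27.5%, so it is no firm estimate of the worth of 1 read. The columns carry the genotype but no replicate number and are called column 1, 2 and 3. WT columns 1 and 2 and *fer* columns 1 and 2 held a value above 0 for all 20754 genes. Some values were tiny, such as 0.00224 for WRKY30 in WT column 2, so the smallest values are not plainly scaled reads. FER (AT3G51550, chr3:19117584-19120949, minus strand) stood at 265, 266 and 286 normalized reads in the WT columns and at 5.95, 6.63 and 10.3 in the *fer* columns, so that its *fer* mean was 2.80% of the WT mean and the labels hold. The 4 leaf mesophyll markers (RBCS1A, RCA, LHCB1.1 and CA1, all of photosynthesis) were abundant in every library, but all 4 were lower in *fer*, and their sum went from 149275 ± 2043 to 110470 ± 2070 (SD, n = 3). The part of this difference in the WRKY levels was not tested. Of the root and flower markers, those in the table stayed at 9.18 normalized reads or below in every library. At such low levels the flower marker AG was called lower in *fer*, with 3.40, 3.01 and 3.23 in WT and 0.0338, 0.0208 and 0 in *fer* (limma adjusted p = 0.033). Sums of guard cell markers (222.6 ± 11.3 in WT and 243.1 ± 10.0 in *fer*) and of phloem companion cell markers (946.6 ± 8.39 and 996.6 ± 27.9) were close, and none of these genes passed the test. WT column 1 stood apart from the other WT libraries in genes induced within minutes of wounding or touch: it was the highest WT library for 11 of 11 such genes and for 22 of the 36 WRKY members whose mean reached 10 in either genotype. The count of called members and the values of several single genes are therefore also given below without it, but not every result is.

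WRKY transcripts were higher in *fer* or did not pass the test, and none was called lower. Genotypes were compared with limma on log2(value + 1), and a gene was called at an adjusted p under 0.05 over all 20754 genes. Of the 39 members, 20 were called higher in *fer*, where 10.0% of all genes were called higher. No member was called lower, where 4.52% of all genes were, and none was lower at an unadjusted p under 0.05 either, where 8.83% of all genes were. The median log2 fold change of the 39 members was 0.84, against 0.10 over all genes. In 22 members every *fer* library lay above every WT library, where 20.8% of all genes did so, and no member showed the opposite, where 10.5% of all genes did. Because WRKY genes were expressed at moderate levels, the calls were also counted over genes whose mean reached 10 in either genotype: 19 of 36 members were called higher, against 12.0% of all such genes. Some members, such as WRKY28 (means of 2.49 in WT and 16.3 in *fer*), entered this count only through *fer*. The count is therefore not independent of the difference it describes. In the deposited values the middle gene was itself 0.10 higher in *fer*. Median of ratios scaling, which set it at 0.003, left 16 members called higher, where 7.28% of all genes were, with 0 lower and a member median of 0.74.

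**Figure D1:**
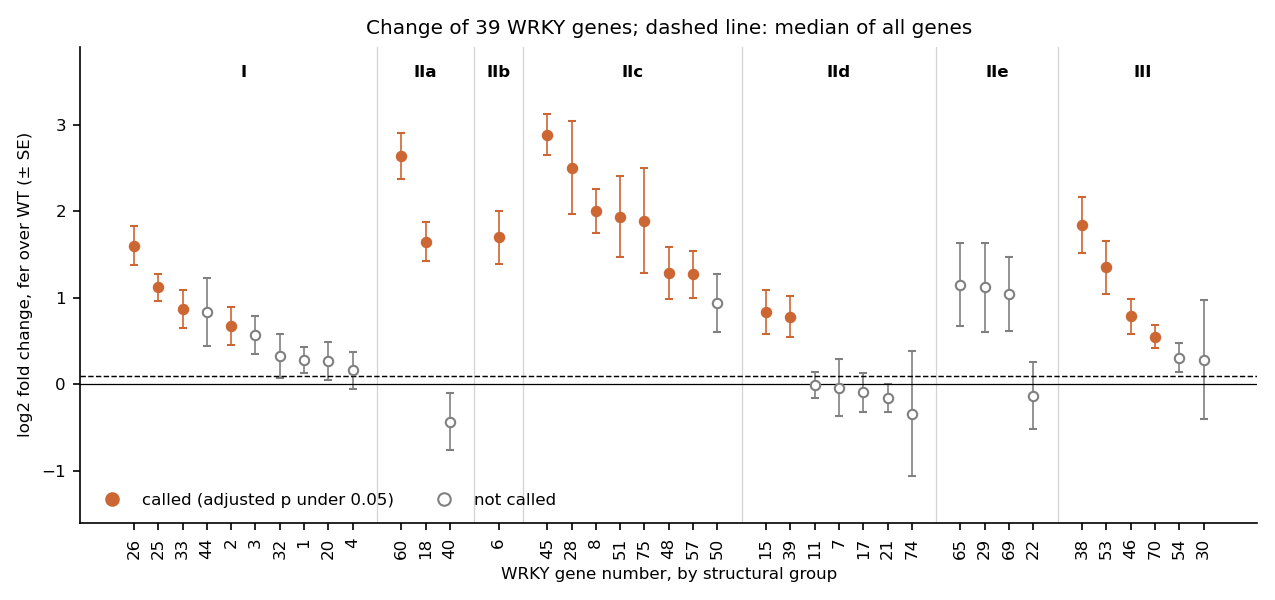
Log2 fold change (*fer* over WT, on log2(value + 1)) with its standard error for each of the 39 WRKY members, ordered by structural group, with called members filled. The median of all genes (0.10) is drawn as a line, and 7 of the 8 group IIc members are called while 5 of the 7 group IId members are not.

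Summed over the 39 members, WT columns 1, 2 and 3 held 2840, 1936 and 2047 normalized reads and the *fer* columns 3640, 3711 and 3696. The *fer* sums lay close together (3682 ± 37.3, SD, n = 3) and all lay above the WT sums (2274 ± 493), of which that of WT column 1 was the highest. WRKY70 alone made up 34.8 to 38.8% of the sum in WT and 29.7 to 34.5% in *fer*, and without it the sums were 1442 ± 260 and 2491 ± 64.4. Without WT column 1, 19 members were called higher, where 8.78% of all genes were, with 17 of them among the 20. The 3 lost were WRKY2, WRKY39 and WRKY75, and the 2 gained were WRKY3 and WRKY50. Leaving out WT column 2 gave 12 such members, where 6.92% of all genes were called higher, and leaving out *fer* column 3 gave 13, where 6.20% were. Limma without a trend of the variance called 8 members. The call held in all 13 alternative fits for 7 members (WRKY6, WRKY8, WRKY25, WRKY26, WRKY45, WRKY57 and WRKY60), was lost in 1 of them for 5 members (WRKY18, WRKY28, WRKY38, WRKY48 and WRKY53), and was lost in 4 to 8 of them for the other 8, of which WRKY75 was tested in 12.

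**Figure D2:**
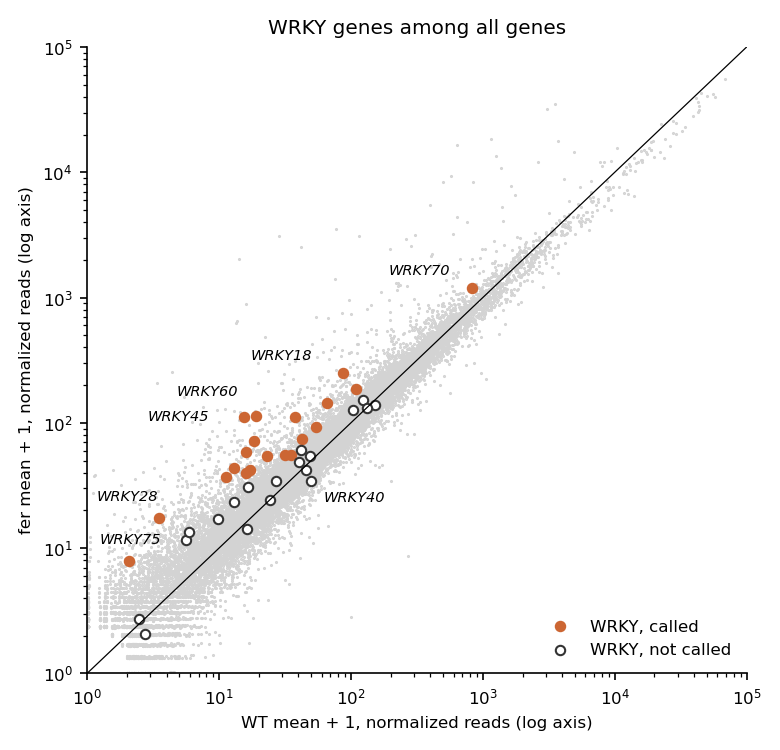
Mean of *fer* against mean of WT for all 20754 genes, in normalized reads plus 1 on log axes, with the 39 WRKY members in larger circles, filled where called. The line marks equal levels, and the 20 called members all lie above it.

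Group IIc, single-domain proteins that include several regulators of senescence and phosphate supply, held the most calls: 7 of 8 members were higher in *fer*, each with a log2 fold change of at least 1, a combination met by 4.73% of all genes. Its median was 1.91, or 1.61 with WRKY75 set at the lower bound given below, and the summed level of the group went from 94.3 ± 18.6 to 356.0 ± 25.6 normalized reads (SD, n = 3). WRKY45 (AT3G01970, chr3:325952-327412, minus strand), which activates the phosphate transporter gene PHT1;1 and promotes leaf senescence, had the largest log2 fold change of the 39 members. It stood at 11.4, 19.1 and 12.6 normalized reads in WT and at 118, 107 and 105 in *fer*. All 3 *fer* libraries were far above any WT library, and the change was 2.88 ± 0.24 on the log2 scale (SE, limma adjusted p = 4.7e-08). WRKY8 (AT5G46350, chr5:18801164-18804056, minus strand), known from responses to salt and to viral and bacterial infection, had 22.9, 12.1 and 17.4 normalized reads in WT and 72.9, 72.7 and 68.1 in *fer*. The *fer* values lay within a narrow range well above those of WT, a log2 change of 2.01 ± 0.26 (limma adjusted p = 1.5e-05).

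WRKY28 (AT4G18170, chr4:10061214-10062893, plus strand), which binds the promoter of the salicylic acid synthesis gene ICS1, was almost unread in WT, at 0.261, 3.03 and 4.18 normalized reads, and stood at 16.2, 11.6 and 21.2 in *fer*. The genotypes did not overlap, and the log2 change was 2.51 ± 0.54 (limma adjusted p = 0.0032). WRKY57 (AT1G69310), a repressor of jasmonate-induced senescence that also acts in drought tolerance, had 16.9, 17.1 and 14.6 in WT and 41.3, 34.8 and 46.1 in *fer*, a log2 change of 1.27 ± 0.27 (limma adjusted p = 0.0027). WRKY48 (AT5G49520), a repressor of basal defence against bacteria, had 15.7, 18.1 and 11.5 in WT and 44.5, 43.1 and 27.7 in *fer*, a log2 change of 1.28 ± 0.30 (limma adjusted p = 0.0062). For both genes every *fer* library was above every WT library, but the call of WRKY48 was lost without *fer* column 1. WRKY75 (AT5G13080), which acts in phosphate starvation and promotes senescence, was at or below 3 normalized reads in each WT library (0.133, 1.01 and 2.10) and at 11.7, 3.19 and 5.77 in *fer*. Its *fer* mean was 2.30 times this floor of 3 normalized reads, which is a lower bound on its fold over WT. Its call (limma adjusted p = 0.043) was lost in 8 of the 12 alternative fits that tested it, since the minimum mean of 5 removed it from the other.

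The 2 members with lysine in the heptapeptide, WRKY50 and WRKY51, are known together from repression of jasmonate responses under salicylic acid. WRKY51 (AT5G64810) had 24.8, 6.06 and 5.24 normalized reads in WT and 48.8, 21.2 and 56.7 in *fer*. WT column 1 lay above the lowest *fer* library, so the genotypes overlapped. The log2 change was 1.94 ± 0.47 (limma adjusted p = 0.0079), and the call was lost in 6 of the 13 alternative fits. WRKY50 (AT5G26170) had 22.4, 14.1 and 10.0 in WT and 20.8, 32.6 and 36.5 in *fer*. It was the only member of group IIc not called, with a log2 change of 0.94 ± 0.34 (limma adjusted p = 0.073), which became 1.23 (adjusted p = 0.037) without WT column 1.

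**Figure D3:**
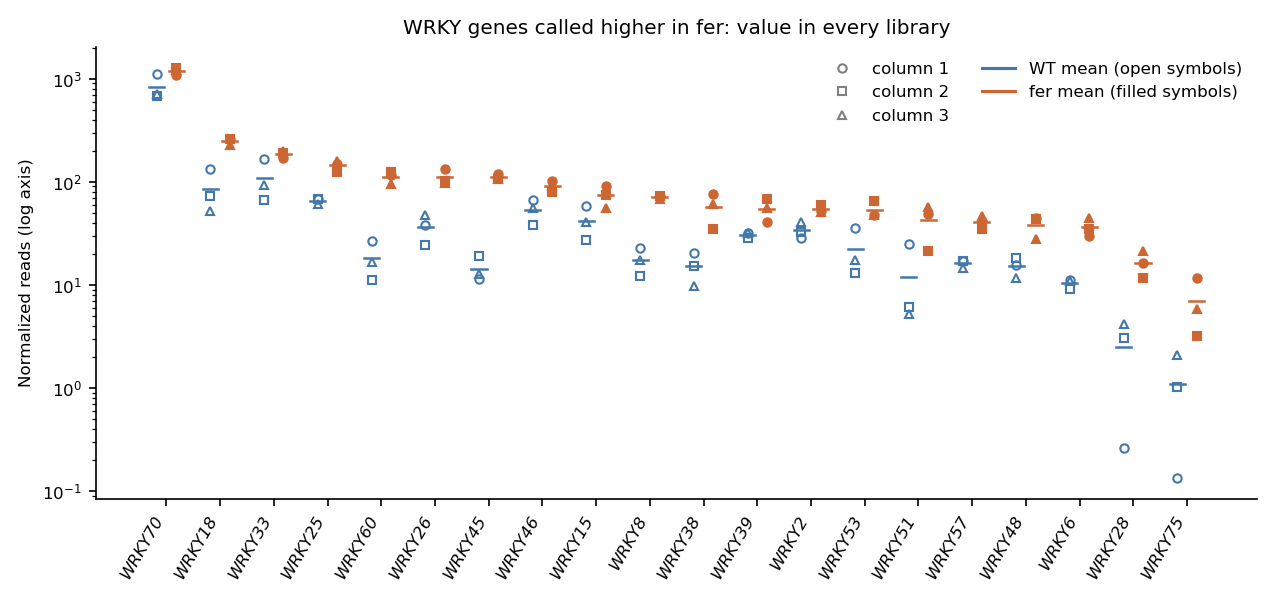
Normalized reads of the called WRKY members in each of the 3 WT and 3 *fer* libraries (log axis), 1 point per library, with the genotype mean as a bar. WRKY45, WRKY60 and WRKY8 show the largest ratios of means among members with a WT mean above 10 normalized reads, and WRKY70, WRKY51 and WRKY15 overlap.

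The 3 members of group IIa, WRKY18, WRKY40 and WRKY60, are close relatives whose proteins bind one another and which limit some immune responses and act in abscisic acid signalling. WRKY60 and WRKY18 were higher in *fer*, and WRKY40 was not called. WRKY60 (AT2G25000, chr2:10629662-10631413, plus strand) had 26.6, 11.1 and 16.5 normalized reads in WT and 117, 123 and 94.8 in *fer*, a log2 change of 2.64 ± 0.26 (limma adjusted p = 7.2e-07). WRKY18 (AT4G31800, chr4:15382777-15385100, plus strand) had 132, 72.5 and 51.5 in WT and 262, 259.7 and 229.6 in *fer*, a log2 change of 1.65 ± 0.22 (limma adjusted p = 2.9e-05). In both genes the genotypes were well apart although WT column 1 was the highest WT library. WRKY40 (AT1G80840, chr1:30383561-30385499, plus strand) had 80.0, 24.2 and 43.6 in WT and 25.4, 42.3 and 31.5 in *fer*. The WT range enclosed all 3 *fer* libraries, and the log2 change was -0.43 ± 0.33 (limma adjusted p = 0.44), or -0.006 without WT column 1. WRKY40 was the one member whose 3′ end was not unique: 4.88% of the 50-base windows in its last 500 transcript bases also occur elsewhere in the genome.

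In group I, the members with a pair of domains, 4 of 10 were called higher, where 10.0% of all genes were. All 10 had a positive log2 fold change, where 12453 of all 20754 genes did, and the group median was 0.62. WRKY25, WRKY26 and WRKY33 are related proteins that act together in heat tolerance, and WRKY33 is also required for camalexin synthesis and resistance to necrotrophic fungi. All 3 were higher in *fer*. WRKY26 (AT5G07100, chr5:2204206-2205965, plus strand) had 38.3, 24.2 and 47.5 normalized reads in WT and 132, 102 and 96.7 in *fer*, a log2 change of 1.60 ± 0.23 (limma adjusted p = 4.7e-05). WRKY25 (AT2G30250, chr2:12903208-12905338, minus strand) had 67.6, 68.4 and 60.3 in WT and 149, 124 and 159.9 in *fer*, a log2 change of 1.12 ± 0.15 (limma adjusted p = 3.6e-05). WRKY33 (AT2G38470, chr2:16108235-16110766, plus strand) had 165, 66.4 and 92.4 in WT and 168, 188 and 199.96 in *fer*, a log2 change of 0.88 ± 0.22 (limma adjusted p = 0.0099).

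For WRKY33 the lowest *fer* library was barely above WT column 1, and the log2 change was 1.23 (adjusted p = 1e-04) without that column, while the call was lost without WT column 2, WT column 3 or *fer* column 3. Its 3′ end overlaps a gene on the opposite strand, AT2G38480, whose mean was 167.5 normalized reads in WT and 103.8 in *fer* (log2 change -0.70, limma adjusted p = 0.0043). WRKY2 (AT5G56270), a regulator of zygote polarity and pollen development, was the fourth called member, with 28.7, 32.2 and 41.1 in WT and 52.4, 60.1 and 50.7 in *fer*. The change was 0.68 ± 0.22 on the log2 scale (limma adjusted p = 0.046), the genotypes did not overlap, and the call was lost in 8 of the 13 alternative fits. The other 6 (WRKY1, WRKY3, WRKY4, WRKY20, WRKY32 and WRKY44) had log2 fold changes between 0.16 and 0.84, with adjusted p from 0.091 upwards. Among them, WRKY44, a regulator of trichome and seed coat development, had the highest estimate.

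Group III holds several regulators of salicylic acid responses and of leaf ageing. Of its 6 members 4 were called higher in *fer*, where 10.0% of all genes were, with a median log2 fold change of 0.67 over the 6. WRKY38 (AT5G22570, chr5:7495455-7496990, minus strand), a repressor of basal defence, had 20.5, 15.1 and 9.76 normalized reads in WT and 75.9, 34.9 and 61.4 in *fer*, a log2 change of 1.84 ± 0.32 (limma adjusted p = 0.00048). WRKY53 (AT4G23810, chr4:12392370-12393982, minus strand), which promotes senescence, had 35.4, 13.1 and 17.6 in WT and 48, 65.2 and 47.9 in *fer*, a log2 change of 1.35 ± 0.31 (limma adjusted p = 0.005). WRKY46 (AT2G46400), active in salicylic acid and drought responses, had 66.1, 38.2 and 55.3 in WT and 101, 79.2 and 91.9 in *fer*, a log2 change of 0.79 ± 0.20 (limma adjusted p = 0.012). In these 3 genes every *fer* library lay above every WT library, and the call of WRKY46 was lost when WT column 2 or *fer* column 1 or 3 was left out.

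WRKY70 (AT3G56400, chr3:20908711-20910623, minus strand), which promotes salicylic acid responses over jasmonate responses and delays senescence, was the most abundant member in every library. It stood at 1101, 682 and 713 normalized reads in WT and at 1083, 1282 and 1209 in *fer*. WT column 1 lay within the *fer* range and the other WT columns well below it. The log2 change was 0.55 ± 0.13 (limma adjusted p = 0.0075), or 0.77 without WT column 1, and the call was lost without WT column 2, WT column 3 or *fer* column 3. WRKY54 (AT2G40750), its closest relative, which acts with it, had 159.9, 97.6 and 113 in WT and 165, 125 and 163 in *fer*. It was not called, with a log2 change of 0.31 ± 0.17 (limma adjusted p = 0.26). WRKY30 was near 0 in both genotypes, at 3.23 normalized reads or less in every library, so a difference was not detectable at these levels.

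WRKY6 (AT1G62300, chr1:23016569-23019494, minus strand), the only group IIb member followed and a factor in senescence and phosphate responses, had 11, 9.07 and 10.8 normalized reads in WT and 29.4, 34.7 and 44.2 in *fer*. The lowest *fer* library was well above the highest of WT, and the log2 change was 1.70 ± 0.31 (limma adjusted p = 0.0007). Group IId proteins bind calmodulin, and here 2 of 7 were called higher, where 10.0% of all genes were. The group median was -0.04 on the log2 scale, and its summed levels were 424.0 ± 22.7 in WT and 461.2 ± 24.3 in *fer*. WRKY39 (AT3G04670), a factor in heat responses, had 32.1, 28.2 and 31.6 in WT and 40.5, 67.4 and 55.5 in *fer*, a log2 change of 0.78 ± 0.23 (limma adjusted p = 0.03). WRKY15 (AT2G23320), which acts in growth and salt responses, had 57.7, 27.2 and 40.7 in WT and 91.5, 73.9 and 55.4 in *fer*, a log2 change of 0.83 ± 0.25 (limma adjusted p = 0.032). WRKY39 did not overlap between genotypes and WRKY15 did, and the calls were lost in 8 and 7 of the 13 alternative fits.

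The other 5 members of group IId had log2 fold changes between -0.34 and -0.01 and were not called. WRKY21 (AT2G30590), the highest of the group in WT, had 152, 156 and 146 normalized reads in WT and 172, 138 and 104 in *fer*, with overlap and a log2 change of -0.16 ± 0.16 (limma adjusted p = 0.57). WRKY11 and WRKY17, related repressors of basal resistance, had log2 changes of -0.01 ± 0.15 and -0.09 ± 0.23 (limma adjusted p = 0.98 and 0.84). WRKY74 reached at most 3.01 normalized reads in any library. In group IIe, which holds WRKY22 and WRKY29 of the MAP kinase cascade that follows flagellin perception, 0 of 4 members were called and the median was 1.08. WRKY22 (AT4G01250), the highest of the group in WT, had 20.9, 16.1 and 8.79 in WT and 12.1, 10.6 and 17.2 in *fer*, a log2 change of -0.13 ± 0.39 (limma adjusted p = 0.87). WRKY29, WRKY65 and WRKY69 had larger estimates, 1.12, 1.15 and 1.05, with limma adjusted p of 0.16, 0.12 and 0.12. These 3 were higher at an unadjusted p under 0.05, where 3782 of all 20754 genes were.

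W boxes were counted in the 250 bases before each gene start, on both strands, since WRKY proteins bind them in WRKY promoters. The promoters shown are those of called members with 2 extended boxes (TTGACC or TTGACT, both of which contain the core) and no other gene in the window. The core TTGAC, or GTCAA where it lies on the other strand, is in capitals, and each sequence is read towards the gene on its strand.
WRKY15, chr2:9924636-9924885, plus strand: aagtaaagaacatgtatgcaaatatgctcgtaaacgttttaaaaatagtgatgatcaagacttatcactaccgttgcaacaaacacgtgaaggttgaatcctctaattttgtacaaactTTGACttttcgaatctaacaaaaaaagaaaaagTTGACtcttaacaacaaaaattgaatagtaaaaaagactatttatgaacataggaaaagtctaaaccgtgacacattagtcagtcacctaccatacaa
WRKY33, chr2:16107985-16108234, plus strand: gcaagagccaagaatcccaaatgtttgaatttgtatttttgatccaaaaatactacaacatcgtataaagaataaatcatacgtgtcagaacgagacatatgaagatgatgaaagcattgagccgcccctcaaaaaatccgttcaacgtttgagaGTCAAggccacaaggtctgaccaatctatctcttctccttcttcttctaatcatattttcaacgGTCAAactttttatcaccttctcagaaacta
WRKY53, chr4:12393983-12394232, minus strand: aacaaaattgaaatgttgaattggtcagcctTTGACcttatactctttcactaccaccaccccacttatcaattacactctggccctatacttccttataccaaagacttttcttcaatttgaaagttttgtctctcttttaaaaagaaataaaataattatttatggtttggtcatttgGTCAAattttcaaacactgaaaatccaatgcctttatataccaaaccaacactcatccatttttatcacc
At least 1 core was found in 22 of 39 members (56.4%), in 14 of the 20 called (70%) and in 8 of the 19 not called (42.1%), where 44.9% of 27443 promoters of protein-coding genes held one. The mean number of cores was 1.0 in called and in uncalled members. The extended boxes were present in 14 members (35.9%), namely 40% of those called and 31.6% of those not called, and in 28.4% of all promoters. The windows of WRKY18 and WRKY60 held 0 cores and that of WRKY40 held 1. A match is a run of letters and was not tested as a binding site.

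Beyond the 39, the annotation names 33 WRKY genes, of which the table held 19, so the others could not be compared. Of the 19, 3 were called higher in *fer* and 0 lower, where 10.0% of all genes were called higher and 4.52% lower. None of the 19 was lower at an unadjusted p under 0.05, where 8.83% of all genes were. With so few genes, these zeros cannot be told apart from the shares of all genes. Their median log2 fold change was 0.51, or 0.33 with genes at the floor set at their bound. WRKY62 (AT5G01900), a group III partner of WRKY38 in repressing basal defence, had 10.1, 6.06 and 1.32 normalized reads in WT and 78.1, 55.8 and 82.6 in *fer*. Its log2 change of 3.67 ± 0.44 (limma adjusted p = 6.9e-06) was larger than that of any of the 39 members. WRKY61 (AT1G18860) had 0.185, 1.01 and 0.385 in WT, under the floor of 3 in each library, and 3.37, 15.6 and 15.5 in *fer*, at least 3.83-fold higher in the mean. WRKY12 (AT2G44745), a regulator of pith cell walls, had 1.47, 3.03 and 4.26 in WT and 13.0, 9.49 and 17.4 in *fer*, a log2 change of 1.89 ± 0.48 (limma adjusted p = 0.01).

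Genes known to act with WRKY proteins are given as lists, to be read beside the 10.0% of all genes called higher and the 4.52% called lower. The first list, MAP kinases upstream of WRKY factors and VQ proteins, small partners that bind the WRKY domain, had 32 of 39 genes in the table, of which 5 were higher in *fer* and 0 lower. The median of the list was 0.21 on the log2 scale. Of the 8 kinases, only MKK4 was called, at 29.7, 16.1 and 29.4 normalized reads in WT and 45.8, 44.3 and 57.5 in *fer*, a log2 change of 0.99 ± 0.27 (limma adjusted p = 0.017), and this call was lost when WT column 2 or *fer* column 1 or 3 was left out. MPK3 and MPK6, the kinases below it, had means of 320.6 ± 120.5 and 192.0 ± 10.4 in WT and 336.7 ± 47.2 and 211.9 ± 24.0 in *fer* and were not called. Of 24 VQ genes 4 were called. JAV1, a VQ repressor of jasmonate defence that binds WRKY51, had 16.8, 9.07 and 8.37 in WT and 40.2, 39.99 and 44.2 in *fer*, a log2 change of 1.83 ± 0.32 (limma adjusted p = 0.00041). AT1G78410 had a log2 change of 1.99 ± 0.64 (limma adjusted p = 0.044) at low levels and AT5G46780 one of 0.68 ± 0.22 (limma adjusted p = 0.042). These 2 calls were lost in 9 and 8 of the 13 alternative fits.

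Known targets and salicylic acid genes downstream or upstream of WRKY factors were described as a list of 16, with 4 called higher in *fer*, 0 lower and a median of 0.72. PR2, a salicylic acid marker that encodes a glucanase, had 216, 155 and 49.8 normalized reads in WT and 848, 907 and 841 in *fer*, a log2 change of 2.85 ± 0.31 (limma adjusted p = 2.1e-06). CAMTA3, a calmodulin-binding repressor of salicylic acid immunity, went from 179 ± 20.9 to 293 ± 30.1 (SD, n = 3, log2 change 0.71 ± 0.12, limma adjusted p = 0.0004). CBP60G, an activator of salicylic acid synthesis, changed by 0.96 ± 0.25 (limma adjusted p = 0.013) and SAG101, a partner of the immune regulator EDS1, by 0.53 ± 0.15 (limma adjusted p = 0.023). The calls of CBP60G and SAG101 were lost in 5 and 7 of the 13 alternative fits, and that of PR2 in 1. The WRKY28 target ICS1 had 63.9, 74.4 and 77.7 in WT and 99.5, 100.3 and 89.9 in *fer*, and the WRKY45 target PHT1;1 had 4.81, 2.02 and 2.76 in WT and 5.50, 12.5 and 9.62 in *fer*. In both genes the genotypes did not overlap, but neither was called (limma adjusted p = 0.086 and 0.097). The WRKY33 target PAD3, the last enzyme of camalexin synthesis, stayed low, with 5.95, 5.03 and 1.91 in WT and 11.9, 5.32 and 10.6 in *fer* (limma adjusted p = 0.22). PR1, another salicylic acid marker, had 70.4, 7.06 and 6.71 in WT and 29.6, 24.4 and 55.7 in *fer*, and WT column 1 exceeded every *fer* library.

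Leaf senescence is a process in which several WRKY members are known to act. Of 10 senescence genes 9 were called higher and 0 lower, where 10.0% and 4.52% of all genes were. The median was 0.84, and summed levels were 792, 634 and 712 in WT and 1531, 1448 and 1452 in *fer*. SAG12, a protease gene of late senescence, was near 0 in WT at 0.393, 0.0140 and 0 normalized reads and stood at 35.7, 25.3 and 48.2 in *fer*. Its *fer* mean was 12.1 times the floor of 3, a lower bound on its fold over WT. SAG13 had 21.0, 32.2 and 14.7 in WT and 276, 266 and 229 in *fer*, a log2 change of 3.51 ± 0.22 (limma adjusted p = 8.5e-10). ORE1, a transcription factor that drives senescence, had 24.0, 15.1 and 19.9 in WT and 63.1, 69.5 and 49.8 in *fer*, a log2 change of 1.59 ± 0.25 (limma adjusted p = 0.00018). Among WRKY members known in senescence, WRKY6, WRKY45, WRKY53 and WRKY75, which are linked to its onset, and WRKY57 and WRKY70, which delay it, were called higher. WRKY54, which acts with WRKY70, and WRKY22, known from dark-induced senescence, were not called, as given above. These members were chosen with earlier results known and do not make a full list of the senescence WRKY genes. Whether the age of the leaves had a part in the WRKY levels was not tested.

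The 11 genes of rapid responses to wounding and touch did not move one way: 1 was called higher and 1 lower, where 10.0% and 4.52% of all genes were. Their median was -0.16. Their sums were 1547, 676 and 855 normalized reads in WT and 905, 918 and 959.8 in *fer*, with WT column 1 above all other libraries and the remaining WT columns below those of *fer*. RRTF1 (also ERF109), a rapidly induced ethylene response factor, was lower in *fer*, with 51.9, 20.1 and 50.2 in WT and 12.3, 12.8 and 11.3 in *fer* (log2 change -1.55 ± 0.35, limma adjusted p = 0.0045). CML38, a calmodulin-like gene, was higher, with 55.3, 26.2 and 36.1 in WT and 66.6, 68.6 and 57.4 in *fer* (log2 change 0.76 ± 0.24, limma adjusted p = 0.042), and this call was lost in 9 of the 13 alternative fits. WRKY33, WRKY40, WRKY46, WRKY53, WRKY18 and WRKY70 were likewise highest among WT libraries in WT column 1. The part of this library's state in the WRKY levels was not tested beyond leaving it out.

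**Figure D4:**
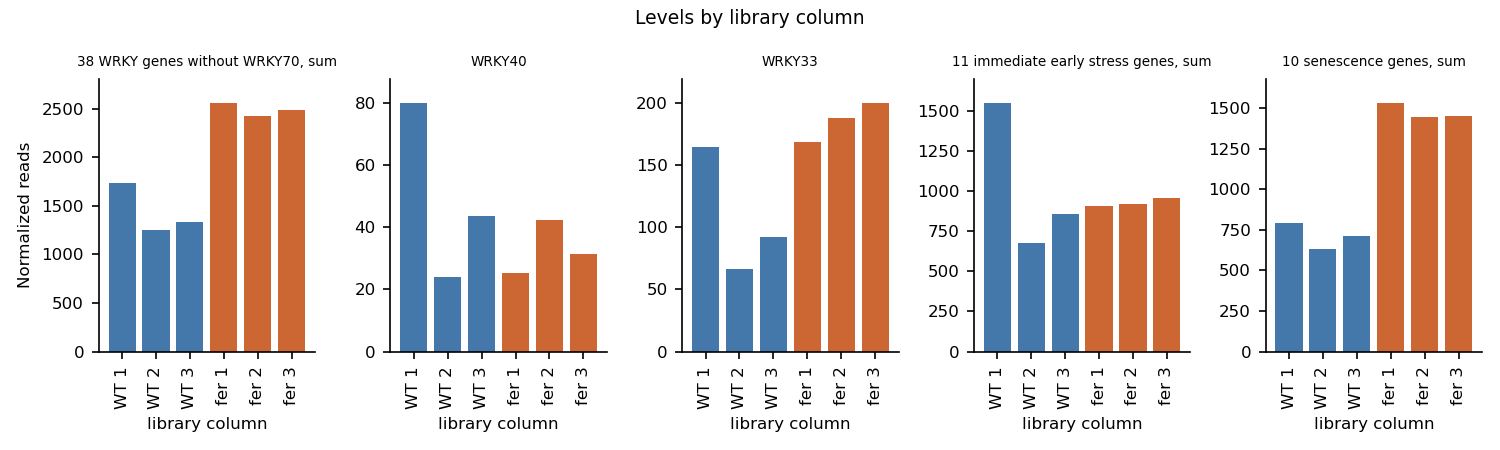
Bars give normalized reads in each library column for the 38 WRKY members other than WRKY70 (sum), for WRKY40, for WRKY33, for the 11 rapid stress genes (sum) and for the 10 senescence genes (sum), each on its own axis from 0. WT column 1 is the highest WT library in all 5 panels and exceeds every *fer* library for WRKY40 and the rapid stress genes, while the WRKY and senescence sums of *fer* lie above all those of WT.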

How the data were processed

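RNA of rosette leaves from 3 WT and 3 *fer* samples was sequenced by QuantSeq 3′ mRNA-Seq. The authors ran every library 2 times with single-end reads of 50 bases, merged the runs, aligned them to TAIR10 with STAR and counted reads per gene with HTSeq in intersection-nonempty mode. Whether counting used strand is not stated. It matters for the 8 members whose 3′ end overlaps a gene of the opposite strand (WRKY1, WRKY2, WRKY4, WRKY29, WRKY33, WRKY40, WRKY53 and WRKY69). The deposited table gives a signal per gene, which the authors made from reads by TMM normalization in edgeR and an adjustment to totals of 4523902 to 4526129. A deposited column of the authors' own log2 fold change was not used.

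Whole reads could not be recovered from the values, so a planned switch to count tests was not made, and no counting interval is given. The test was limma 3.58.1 (R 4.3.3) on log2(value + 1). It was two-sided, let the prior variance follow the mean level, and was adjusted after Benjamini and Hochberg over 20754 genes. Fold changes are on that scale, and the pseudocount of 1 understates those of low genes. An exact permutation test of 3 against 3 libraries cannot go below p = 0.1. Separate plants behind the replicates are not documented, so p-values measure the spread between these libraries.

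Every member called and the highest member of each structural group are given by library. Of the other lists, up to 4 called genes with the largest change are named, and ICS1, PHT1;1, PAD3, PR1, MPK3 and MPK6 were added after their values were seen. The members and lists were chosen with earlier results of these data known. Alternatives were pseudocounts of 0.1 and 5, a minimum mean of 5, scaling by median of ratios or by quantiles, limma with no trend or with robust variances, stricter thresholds, and leaving out each library. The columns' order names libraries and pairs nothing. Sequences come from TAIR10.1.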

Additional observations from a re-analysis of the deposited data

How the results depend on the processing

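The 20 WRKY members called higher in *fer* became 8 with limma without the trend (4.38% of all genes), 16 with median of ratios scaling, 16 with quantile normalization (6.52%), 15 at an adjusted p under 0.01 (5.73%), and 12 to 19 when 1 library was left out. No member was called lower in any of these fits. The member median of 0.84 ranged from 0.65 to 1.12 over the fits without 1 library. Over all genes, the 2083 called higher became 1353 with quantile normalization, 908 without the trend, 1190 at an adjusted p under 0.01, 981 with a log2 fold change of at least 1, and 1287 to 1822 without 1 library. The 938 called lower became 1460 with median of ratios scaling, 1450 with quantile normalization, 222 without the trend, 492 at the stricter adjusted p, 163 with the fold minimum, and 537 to 821 without 1 library.

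The median of the other WRKY genes, 0.51, became 0.70 with a pseudocount of 0.1 and 0.27 with 5, and 0.37 to 0.75 without 1 library. Of the partner list, 5 calls became 2 with median of ratios scaling, 2 with quantile normalization, 1 without the trend and 1 to 6 without 1 library, and its median of 0.21 became 0.034 with quantile normalization and 0.15 to 0.36 without 1 library. The target list went from 4 calls to 1 without the trend and 2 to 7 without 1 library, with medians of 0.52 to 0.88. The senescence list went from 9 calls to 5 without the trend and 8 without any 1 library, and its median of 0.84 to 0.74 with median of ratios scaling, 0.71 with quantile normalization and 0.71 to 0.95 without 1 library. In the early stress list, the 1 gene called higher was lost (0 genes) with a pseudocount of 0.1, with median of ratios scaling, with quantile normalization and without the trend, there were 2 with robust variances and 0 to 3 without 1 library, the 1 called lower was lost without the trend (0 genes), and the median of -0.16 ranged from -0.42 to 0.17, above 0 only without WT column 1. The causes were not tested.

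Of 803 values of single genes under the alternatives, 663 kept direction and call, 122 lost the call, 3 gained one and 15 changed sign. All sign changes were in uncalled members when 1 library was left out: WRKY7 (-0.33 to 0.14), WRKY11 (-0.11 to 0.088), WRKY17 (-0.29 to 0.044), WRKY21 (-0.33 to 0.029), WRKY22 (-0.46 to 0.12), WRKY30 (-0.25 to 0.79) and WRKY74 (-0.96 to 0.11). Count tests with edgeR or DESeq2 were not run, because the values are not whole reads. No paired analysis was possible because no column of the table shows a replicate number. The values do not yield a depth per library, so no counting limit is given for low members such as WRKY30 and WRKY74.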
